A study of Rattus norvegicus with 2 samples.

Results

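Ciliated airway cells were examined in droplet-based single-cell RNA sequencing of dissociated rat lung, with 1 library from the lungs of gas-explosion rats and 1 library from control rats. The cells were chosen by their own measured counts, through a marker gate. A barcode was a member when it had at least 200 genes, when at least 3 of the 9 genes Foxj1, Dnah12, Tppp3, Rsph1, Cfap126, Sec14l3, Dynlrb2, Ccdc153 and Tmem212 had a unique molecular identifier (UMI, 1 counted transcript), and when the 9 genes together held at least 0.3% of its UMIs. The gate took 208 of 12642 barcodes in the explosion library and 960 of 21117 in the control library, 1168 of 33759 in all. Both libraries came from fresh lung of rats kept under specific pathogen-free conditions. The labels enter the gas explosion as the treatment protocol of both libraries and tell them apart by the treatment label, Explosion or Control. The tissue was digested with enzymes, red cells were lysed and dead cells were removed with beads. Strain, sex, age, the time after the explosion and the number of animals in a library are not given in the labels. With 1 library in each group there is no replicate, so no test was run and every difference below is a difference between these 2 libraries. Intervals in parentheses are 95% intervals that cover counting error only.

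Motile cilia are built on a ring of doublet microtubules around a central pair. Outer and inner dynein arms slide the doublets, radial spokes and the central apparatus regulate the beat, and microtubule inner proteins line the doublets from inside. In the airway, multiciliated cells differentiate under Mcidas, Myb, Rfx factors and Foxj1, stand among secretory club cells that make the secretoglobin Scgb1a1, and sweep mucus out of the lung.

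Depth differed between the libraries and bears on every value here. Barcodes held 538.5 UMIs at the median in the explosion library and 4917 in the control library. The protocol in the labels aimed for at least 5000 captured cells and at least 20000 reads per cell in each. Members held 897 UMIs at the median (range 281 to 4660) and 699 genes in the explosion library, against 4362 UMIs (range 500 to 94498) and 2230.5 genes in the control library. Of the members, 18 explosion and 0 control barcodes had fewer than 500 UMIs. The libraries shared 85 barcode sequences, none of them a member in both. Mitochondrial genes held 3.26% of the UMIs of explosion members and 0.929% of those of control members. The part of depth and RNA quality in the differences below was not tested. A member carried a median of 5 of the 9 gate genes in the explosion library and 8 in the control library, and the 9 genes held a median of 1.09% and 1.02% of its UMIs. All 9 genes were found in 0 explosion and 478 control members.

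**Figure D1:**
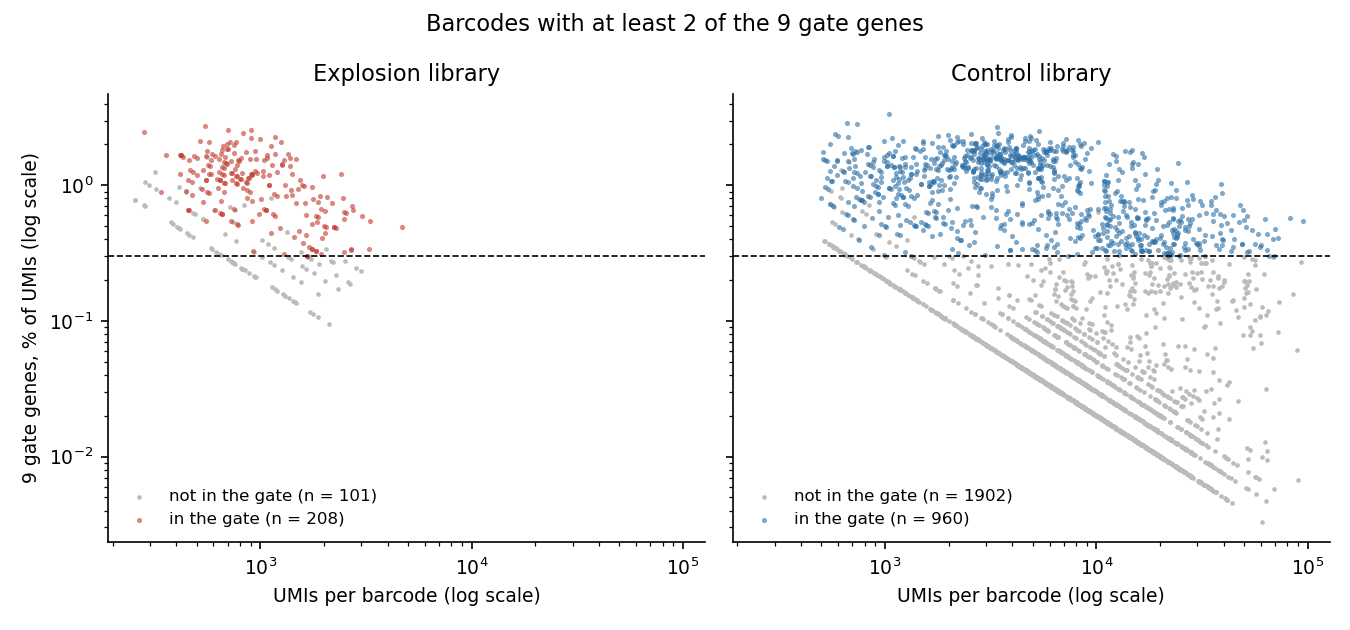
Share of UMIs from the 9 gate genes (y axis, percent, log scale) against UMIs per barcode (x axis, log scale) for barcodes with at least 2 of the 9 genes, explosion library left and control library right; coloured points are members and the dashed line is the 0.3% limit. The 208 explosion members lie between 281 and 4660 UMIs and the 960 control members between 500 and 94498, with many control barcodes just under the limit.

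The edge of the gate was more crowded in the control library. Among barcodes with at least 3 of the 9 genes, 15 explosion barcodes lay just inside the limit, at 0.3 to 0.4% of their UMIs, and 10 just outside it, at 0.2 to 0.3%. In the control library these numbers were 115 and 106. Barcodes with 3 or more of the genes but under 0.3% of their UMIs numbered 13 in the explosion library and 509 in the control library. Another 47 explosion and 42 control barcodes reached 0.3% with only 2 of the genes. Barcodes that also passed a macrophage gate of the same form numbered 3 in the explosion library and 33 in the control library.

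The 9 gate genes chose the cells, so their levels are a description. Levels are given as CPM, a gene's UMIs summed over the members of a library and expressed per 1000000 of their UMIs. Foxj1, the forkhead factor of motile ciliogenesis, stood at 590.7 CPM in explosion members and 227 CPM in control members. Dnah12, an inner arm dynein heavy chain, stood at 2184 CPM in explosion members and 759 CPM in control members. For Sec14l3, a lipid-transfer protein, the values were 2886 CPM in explosion and 1546 CPM in control members. The tubulin-binding Tppp3 had 1598 CPM in explosion and 1223 CPM in control members. The other 5 gate genes were lower in explosion members. Dynlrb2, a dynein light chain, had 676 CPM in explosion and 1502 CPM in control members. Tmem212 had 199.7 and 385 CPM, Rsph1 of the radial spoke head 344 and 525 CPM, and Cfap126 357 and 528 CPM in explosion and control members. Ccdc153, listed as Drc12 of the nexin-dynein regulatory complex in RefSeq, had 625 CPM in explosion and 704 CPM in control members. In other barcodes each of the 9 genes lay at 67.1 CPM or less in the explosion library and 85.6 CPM or less in the control library, highest for Tppp3 in both.

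Most genes of the motile cilium went with the gate. Members were compared with all other barcodes of at least 200 genes in the same library, on 3618 genes with a mean of at least 50 CPM over explosion and control members, the 9 gate genes left out. Of these, 631 (17.4%) were at least 4-fold higher in members in both libraries. Of 254 further cilium genes in 10 lists ordered by structure, 177 reached the level limit and 149 of those 177 were among the 631. Since the gate itself was made of cilium genes, this count describes the cells and was not tested. All 24 microtubule inner protein genes that reached the level limit were among them, as were 14 of 15 central apparatus genes, 19 of 20 inner dynein arm genes and 15 of 16 radial spoke genes. The level limit was also set on members, so cilium genes low in members were not counted. The label of ciliated cells rests on the gate, and these counts are no separate test of it. Limits from secretory transcripts are given below.

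Ranked by the smaller of the 2 within-library ratios, the leading genes were Caln1, a calcium-binding protein, Odad2 of the outer dynein arm docking complex, Lrrc6 (Dnaaf11 in RefSeq), an assembly factor of dynein arms, Ccdc83, LOC499240 (C1h11orf16 in RefSeq), Fam161a of the ciliary base, Pifo, Dydc2 of the radial spokes, RGD1565611 (Liat1 in RefSeq) and Hoatz, a protein of motile cilia and flagella. They were followed by Dnai1, an outer arm intermediate chain, Fbxo36, Cfap251 of the radial spokes, Cibar2 and the adenylate kinase Ak9. On the log2 scale the smaller ratio ran from 5.96 for Ak9 to 6.37 for Caln1. Levels of these 15 genes differed between libraries in both directions. Ak9 stood at 824 CPM in explosion members and 402 CPM in control members, and Odad2 at 268 and 121 CPM. Pifo stood at 55.2 CPM in explosion members and 214 CPM in control members, and Cibar2 at 93.5 and 233 CPM.

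**Figure D2:**
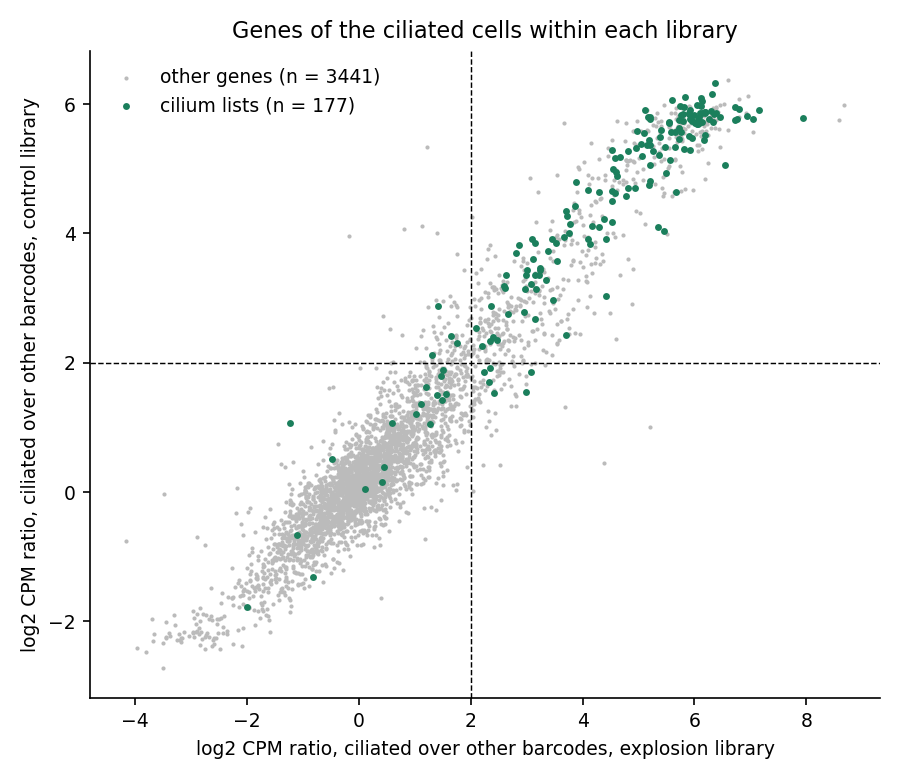
Each point is 1 of 3618 genes; the axes give the log2 CPM ratio of ciliated members over other barcodes in the explosion library (x) and in the control library (y), with dashed lines at 4-fold. Of the 177 genes of the cilium lists, in green, 149 lie in the upper right corner past both lines.

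Promoters of these genes are shown because Rfx factors, which switch on cilium genes, bind the X-box, a pair of inverted repeats. RefSeq (assembly GRCr8) windows from 250 bases before to 50 bases after the start were available for 514 of the 631 genes, 1 window a gene, and were searched on both strands for 3 patterns of letters. A single repeat, GTTGCC, lay in 157 of the 514 windows (30.5%), in 12.3% of the 2474 windows of the other genes compared and in 12.2% of all 27457 windows. The pair, GTTNCC and after 3 further bases GNAAC, lay in 23 of the 514 windows (4.47%), in 0.849% of the windows of the other genes compared and in 0.758% of all windows. The 2 patterns overlap in part. The forkhead core GTAAACA lay in 3.70% of the 514 windows, in 2.14% of the other genes compared and in 3.76% of all windows. A match of letters does not show a bound site. Pairs that ran past the first base of the start were left out of the stretches shown. Among genes with a pair within that limit, the 6 that stood highest over other barcodes are shown. They are given 5′ to 3′ on the strand of the gene, with the pair in capitals, up to the start of transcription where it is near.
Hydin, chr19:55146434-55146465, plus strand: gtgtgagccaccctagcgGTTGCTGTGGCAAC
Tekt4, chr10:14992253-14992284, plus strand: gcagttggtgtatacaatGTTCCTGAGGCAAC
Dnaaf6, chrX:108512935-108512984, plus strand: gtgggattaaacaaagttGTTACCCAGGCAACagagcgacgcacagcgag
Cfap45, chr13:87521800-87521831, plus strand: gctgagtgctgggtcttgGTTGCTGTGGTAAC
Ttll9, chr3:161889641-161889690, plus strand: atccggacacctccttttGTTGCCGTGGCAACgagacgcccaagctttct
Efhb, chr9:6678269-6678318, minus strand: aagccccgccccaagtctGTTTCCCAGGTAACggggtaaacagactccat
In all 6, chosen with that limit on position, the pair began within 49 bases of the start. Hydin encodes a protein of the central apparatus, Tekt4 and Cfap45 proteins of the doublet lumen, Dnaaf6 a dynein arm assembly factor and Ttll9 a member of the tubulin tyrosine ligase-like family.

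Members made up 1.65% of barcodes in the explosion library (1.43 to 1.88) and 4.55% in the control library (4.27 to 4.84). Depth moved with this difference. The control library held no barcode under 500 UMIs, while the explosion library held barcodes down to 231 UMIs. With at least 500 UMIs per barcode and no thinning, members were 2.82% of explosion and 4.55% of control barcodes. Part of the narrowing was thus there before thinning. When every barcode was thinned to 500 UMIs before the gate, members were 2.16% of explosion barcodes and 3.15% of control barcodes with that depth. The gap was 0.985 percentage points with thinned barcodes, against 2.90 with all UMIs. A share of barcodes is not a share of cells in the tissue.

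Secretory transcripts were common in members, and more so in the control library when all members were kept. Some members also passed a secretory gate (3 secretory markers and 0.3% of UMIs). Without those members the summed Scgb1a1 share took the opposite order, 8.33% of explosion and 6.56% of control UMIs. The median remaining member still held less in the explosion library, 0.926% against 3.43% in the control library. Secretory markers summed to 1594 CPM in these explosion members and 1789 CPM in these control members. With all members kept, Scgb1a1, the main secretoglobin of club cells, made up 13.0% of all UMIs of explosion members and 27.1% of those of control members. The median member held 1.09% Scgb1a1 in the explosion library and 5.44% in the control library, while in macrophage-gated barcodes, which should lack the gene, the median was 0.385% and 1.44%. At least 10% Scgb1a1 was found in 62 of 208 explosion members (29.8%, 23.7 to 36.5) and 350 of 960 control members (36.5%, 33.4 to 39.6). In the macrophage gate 0.189% of explosion and 0.439% of control barcodes reached 10%. At least 5% Scgb1a1 was found in 67 explosion and 507 control members, so that few explosion members but many control members lay between 5 and 10%. The cut at 10% was chosen after these values were seen.

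**Figure D3:**
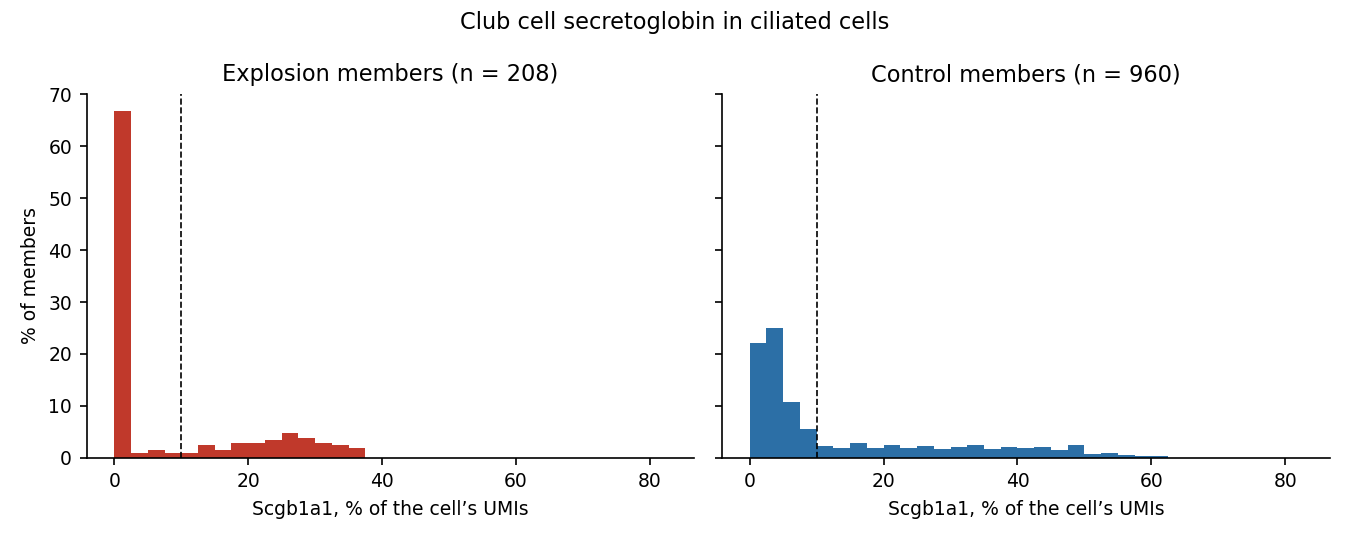
Histograms of Scgb1a1 as a percentage of each member's UMIs (x axis, bins of 2.5) with the percentage of members in each bin (y axis), explosion members left and control members right; the dashed line marks 10%. To the right of the line lie 29.8% of explosion members and 36.5% of control members.

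Scgb1a1-rich members were also the deepest. Those with at least 10% Scgb1a1 held 1760 UMIs at the median in the explosion library and 14715 in the control library, against 743.5 and 3045.5 UMIs for the remaining explosion and control members. They supplied 48.6% of the UMIs summed over explosion members and 72.0% of those over control members. Their gate genes held 0.579% of UMIs at the median in the explosion library and 0.567% in the control library. A doublet caller marked 1.61% of the Scgb1a1-rich explosion members and 4.00% of the Scgb1a1-rich control members, against 6.16% and 12.8% of the other explosion and control members. Whether they are cells with both programs, droplets with 2 cells or cells with free secretory RNA was not tested. For this reason the values of members under 10% Scgb1a1, 146 explosion and 610 control barcodes, are given beside the main ones for the lists and genes where they change a call or move a count by more than 1.5 times.

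Other cell types were checked with 14 fixed marker lists. The secretory list had 9 of 11 genes with a UMI in explosion members and 10 of 11 in control members, with summed levels of 3935 and 36878 CPM; in members under 10% Scgb1a1 they were 1198 and 2601 CPM. Alveolar type 2 markers summed to 4870 CPM in explosion and 7160 CPM in control members, against 10655 and 21917 CPM in other explosion and control barcodes. Lyz2, which macrophages also make, held most of the sum in the other barcodes, at 7782 and 18472 CPM, against 1075 and 4305 CPM in explosion and control members. The surfactant genes did not all move alike. Sftpc went with Lyz2, at 63.7 CPM in explosion members and 743 CPM in other explosion barcodes. In control members and other control barcodes it had 84.8 and 563 CPM. Sftpb stood at 1955 CPM in explosion members and 796 CPM in other explosion barcodes. Its control values were 886 CPM in members and 1041 CPM in other barcodes. In the explosion library Sftpa1 and Sftpd were also higher in members than in other barcodes. Sftpb in members under 10% Scgb1a1 stood at 182 CPM in the explosion library and 98.5 CPM in the control library. Macrophage markers summed to 250.7 CPM in explosion and 463 CPM in control members, with 8 and 10 of 11 genes found; Marco was at 0 in members and in other barcodes of both libraries, so it carries no information here. Of the basal cell list, 3 of 7 genes had a UMI in explosion members and 5 of 7 in control members, and the defining Krt5 and Tp63 were at 0 in both. These 2 genes were close to 0 in the other barcodes as well, at 1.37 and 2.4 CPM in the explosion library and 0.038 and 0.23 CPM in the control library. Fibroblast markers summed to 544 CPM in explosion and 93.7 CPM in control members, with 6 and 8 of 9 genes found; in other explosion and control barcodes they summed to 3464 and 424 CPM. Neutrophil markers summed to 21.2 CPM in explosion and 209.6 CPM in control members, with 3 and 8 of 8 genes found. The other lists summed to at most 225 CPM in explosion and 158 CPM in control members. The part of these cells in the differences below was not tested.

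Between libraries, most genes of the members stood higher in the explosion library on the CPM scale. A gene was called where its log2 ratio of explosion over control members, with 0.5 counts added to each sum, passed 2-fold. Of the 3618 genes, 1494 (41.3%) were at least 2-fold higher and 484 (13.4%) at least 2-fold lower in explosion members. The median log2 ratio of all genes was thus 0.73 rather than 0, and Scgb1a1 alone held 13.0% of the explosion and 27.1% of the control UMIs. Relative to that median, 546 (15.1%) were at least 2-fold higher and 910 (25.2%) at least 2-fold lower. In members under 10% Scgb1a1, 1228 of 4379 genes (28.0%) were at least 2-fold higher and 724 (16.5%) at least 2-fold lower, with a median of 0.41. Counts in the lists below are to be read beside these shares of all genes. The other barcodes, taken as a whole, had a median of 0.80 over the same 3618 genes.

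As a whole the cilium lists did not stand above this background. Of the 177 genes, 58 (32.8%) were at least 2-fold higher and 13 (7.34%) at least 2-fold lower in explosion members. The shares of all genes were 41.3% and 13.4%. The median log2 ratio of the 177 was 0.52, which is 0.21 below that of all genes and negative where ratios are centred on the median gene. In members under 10% Scgb1a1, 44 of 192 were at least 2-fold higher and 17 at least 2-fold lower. The median there was 0.37, close to the 0.41 of all genes. With a level limit of 100 CPM the order turned, with a median of 0.62 for 122 cilium genes and 0.55 for all genes. Within the lists, however, structures differed, as the plot by gene list shows.

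**Figure D4:**
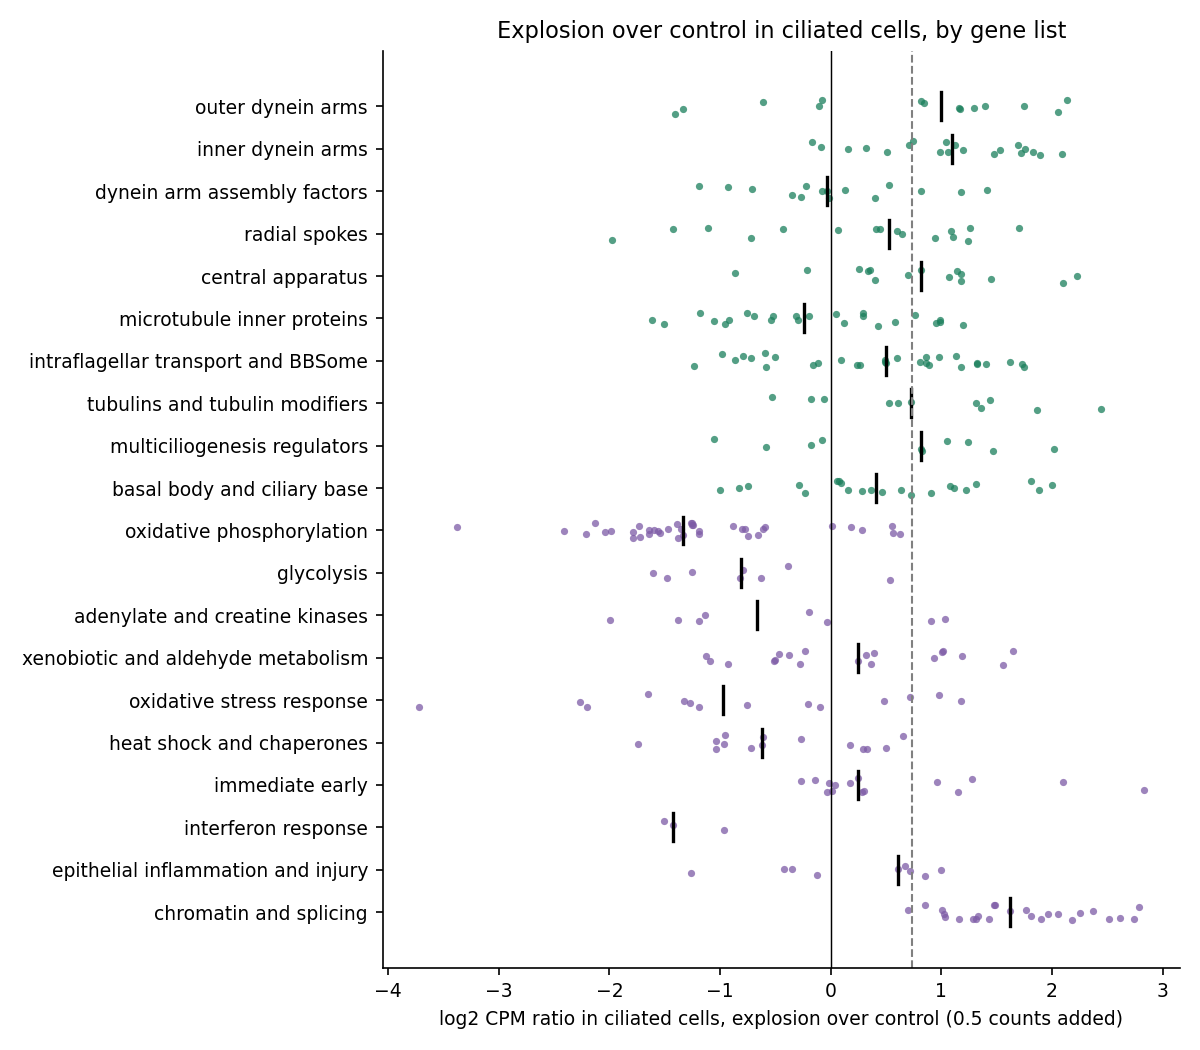
Each point is a gene with a mean of at least 50 CPM, placed by its log2 CPM ratio in explosion over control members (x axis), in 20 lists (y axis; cilium lists green, other programs purple). Black bars are list medians and the dashed line is the median of all genes, 0.73. Inner dynein arms (median 1.09) lie right of the dashed line and oxidative phosphorylation (median -1.34) left of 0.

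Dynein arm genes held both the higher and the lower values. Among 14 outer arm genes, 7 were at least 2-fold higher and 2 at least 2-fold lower (median log2 ratio 1.00, or 0.27 above all genes). These shares, 50% and 14.3%, lie near the 41.3% higher and 13.4% lower of all genes. Dnah9 and Dnah11, outer arm heavy chains, stood at 748 and 1122 CPM in explosion members, against 170.1 and 271 CPM in control members. The light chains Dynll1 and Dynlt1, which also serve cytoplasmic dynein, stood at 599 and 280.5 CPM in explosion members, against 1592 and 713 CPM in control members. Among 20 inner arm genes, 12 were at least 2-fold higher, 60% against 41.3% of all genes, and none at least 2-fold lower (median 1.09). When the sums were limited to members under 10% Scgb1a1, 7 of 21 genes were at least 2-fold higher, with a median of 0.68. Dnah3, an inner arm heavy chain, had 782 CPM in explosion and 183.5 CPM in control members, and Tcte1 of the nexin-dynein regulatory complex 170.0 and 46.2 CPM. At the low end of the inner arm list Gas8 had 144 CPM in explosion and 165 CPM in control members, a ratio of 0.874 (0.603 to 1.23).

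Dynein heavy chains, the motor subunits, formed the highest group; they were put together after their values were seen, with the gate gene Dnah12 left out. All 10 that reached the level limit (Dnah1, Dnah2, Dnah3, Dnah5, Dnah6, Dnah7, Dnah9, Dnah10, Dnah11 and Dnah14) lay above the median of all genes, 9 were at least 2-fold higher, and their median log2 ratio was 1.73. Ratios ran from 1.97 (1.48 to 2.57) for Dnah1 to 4.40 (3.74 to 5.14) for Dnah9. Between them lay Dnah5 of the outer arm, at 727 CPM in explosion and 217 CPM in control members, and the inner arm chains Dnah7, at 629 and 192 CPM, Dnah2, at 225 and 78.6 CPM, and Dnah6, at 854 and 374 CPM. The pattern was thus shared by outer and inner arm chains. In members under 10% Scgb1a1, 8 of the 10 were at least 2-fold higher and the median was 1.48, against 0.41 for all genes there. In Scgb1a1-rich members it was 1.55. In the other barcodes, where these genes had far lower levels, it was 1.30 against 0.80 for all genes. Among these, secretory-gated barcodes had a median of 1.98, above that of the members, against 1.11 for all genes. Macrophage-gated barcodes had 1.01 against 0.54. The higher ratios were thus not particular to ciliated cells.

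Assembly factors, which fold and load dynein arms in the cytoplasm, had a median log2 ratio of -0.03, or 0.77 below all genes. Of 15, 2 (13.3%) were at least 2-fold higher and 1 (6.67%) at least 2-fold lower, against 41.3% and 13.4% of all genes. In members under 10% Scgb1a1 these counts were 1 and 1 of 16. Spag1 had 255 CPM in explosion and 96.2 CPM in control members, and Ccdc103 34.0 and 82.2 CPM, the explosion value resting on 8 UMIs. Ruvbl1, a helicase-like cofactor of assembly, had 72.2 CPM in explosion and 142 CPM in control members.

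Radial spokes and the central apparatus spanned a wide range. Of 16 spoke genes, 5 were at least 2-fold higher and 3 at least 2-fold lower (median 0.52, or -0.21 relative to all genes). These shares were 31.25% and 18.75%, against 41.3% and 13.4% of all genes. With members under 10% Scgb1a1 alone, 2 of 17 were at least 2-fold higher and 3 at least 2-fold lower. Ak8 and Cfap206 had 110.5 and 208 CPM in explosion members, against 34.6 and 87.6 CPM in control members. Ropn1l, a spoke stalk protein, was 4.05-fold lower (2.59 to 6.73), at 80.7 CPM in explosion and 327 CPM in control members. The spoke head gene Rsph9 was 2.71-fold lower (2.05 to 3.67), at 208 CPM in explosion and 565 CPM in control members. Of 15 central apparatus genes, 7 were at least 2-fold higher, a share of 46.7% near the 41.3% of all genes, and none at least 2-fold lower (median 0.82). The count was 3 of 16 in members under 10% Scgb1a1, against 28.0% of all genes there. Cfap46 had 850.0 CPM in explosion and 182.5 CPM in control members, a ratio of 4.66 (4.00 to 5.40). For Cfap65 the levels were 769 and 180.2 CPM and for Hydin 1207 and 442 CPM in explosion and control members. Calml4, a calmodulin-like protein, lay lowest, at 119 CPM in explosion and 220.3 CPM in control members.

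Microtubule inner proteins were the lowest of the cilium lists. Of 24 genes, 1 was at least 2-fold higher, 4.17% against 41.3% of all genes. At least 2-fold lower were 4, a share of 16.7% near the 13.4% of all genes. The median log2 ratio was -0.24, or 0.98 below all genes, and 19 of the 24 lay below the median of all genes. Efcab10 was 3.11-fold lower (2.25 to 4.42), at 157 CPM in explosion and 489 CPM in control members. RGD1564171, Cfap141 in RefSeq, had 51.0 CPM in explosion and 151 CPM in control members. Cfap77 stood highest in the list, at 336 CPM in explosion and 147 CPM in control members. In members under 10% Scgb1a1 the median was -0.21, with 1 of 25 genes at least 2-fold higher and 6 at least 2-fold lower. In the other barcodes of the 2 libraries the same genes had a median of -0.39.

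**Figure D5:**
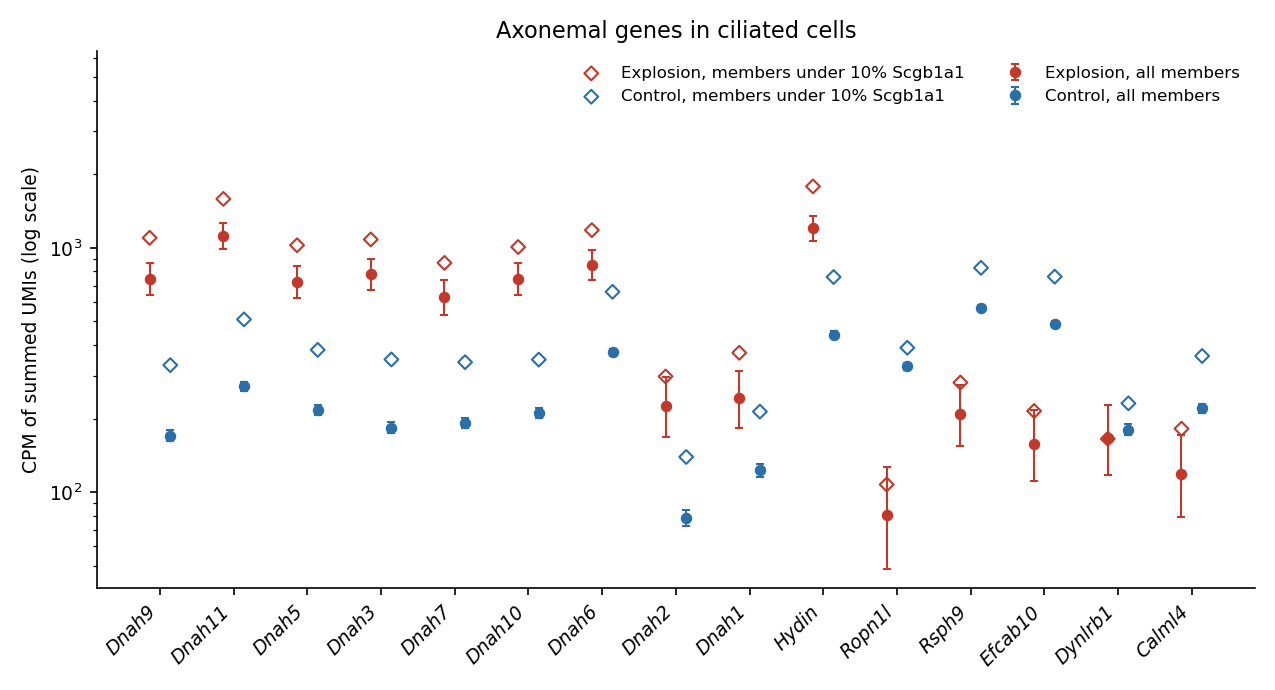
Levels of 15 axonemal genes in CPM of summed UMIs (y axis, log scale); filled circles with 95% Poisson intervals are all members and open diamonds are members under 10% Scgb1a1, explosion in red left of control in blue. The 9 heavy chains and Hydin lie higher in explosion members, and Ropn1l, Rsph9, Efcab10 and Calml4 lower, in both sets of members. Levels of different genes are not to be compared.

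Intraflagellar transport and BBSome genes, which carry cargo along the axoneme, had a median log2 ratio of 0.50, or -0.24 relative to all genes. Of 30, 8 (26.7%) were at least 2-fold higher and 1 (3.33%) at least 2-fold lower, against 41.3% and 13.4% of all genes. Counts in members under 10% Scgb1a1 were 9 of 36 at least 2-fold higher and 4 at least 2-fold lower. Ttc26 (Ift56 in RefSeq) had 199.7 CPM in explosion and 59.9 CPM in control members, the kinesin subunit Kif3b 110.5 and 33.9 CPM, and Ift27 115 and 276 CPM. Of 11 tubulin genes and modifiers, 5 were at least 2-fold higher and none at least 2-fold lower (median 0.73). The share higher, 45.5%, lies near the 41.3% of all genes. In members under 10% Scgb1a1, 3 of 11 were at least 2-fold higher, against 28.0% of all genes there. The polyglycylase Ttll10 had 89.2 CPM in explosion and 16.7 CPM in control members, and Ttll5 153 and 42.6 CPM. Tubb4b and Tuba1a, the main ciliary tubulins, had 1279 and 841 CPM in explosion members, against 1855 and 957 CPM in control members. Reads of near-identical tubulin copies may have been split or dropped in counting. Basal body and ciliary base genes had a median of 0.41, or -0.32 relative to all genes. Of 22, 7 (31.8%) were at least 2-fold higher and 1 (4.55%) at least 2-fold lower, against 41.3% and 13.4% of all genes. Rpgr, a guanosine triphosphatase regulator at the ciliary base, had 807 CPM in explosion and 202 CPM in control members, and Tmem67 of the transition zone 217 and 59.4 CPM. Lrrc46 had 97.7 CPM in explosion and 199.9 CPM in control members.

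Regulators of multiciliogenesis had a median log2 ratio of 0.82, or 0.09 above all genes, with 4 of 10 at least 2-fold higher and 1 at least 2-fold lower. These shares lie close to the 41.3% and 13.4% of all genes. Rfx3, an X-box factor, stood at 476 CPM in explosion and 118 CPM in control members, a ratio of 4.03 (3.29 to 4.90), while its ratio in other barcodes was higher still, with a log2 of 2.62 against 2.02 in members. Tp73 had 178 CPM in explosion and 65.3 CPM in control members, Hes6 42.5 and 92.4 CPM, and the deuterosome gene Deup1 59.5 and 92.2 CPM. Hes6 rested on 10 UMIs in explosion members and passed 2-fold only with Scgb1a1-rich members, with 74.4 and 90.4 CPM in the other explosion and control members.

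Cells thinned to 500 UMIs gave the same genes as shares of members, over 190 explosion and 960 control members with that depth. These members were chosen at full depth, before thinning, and the part of that choice in the shares was not tested. Foxj1 is a gate gene, so its shares are a description. Foxj1 had a UMI in 31.1% of explosion members (24.6 to 38.2) and 14.7% of control members (12.5 to 17.1), against 0.305% and 0.159% of other explosion and control barcodes. Before thinning the order was the opposite, 48.1% of explosion and 68.8% of control members. For Myb the thinned shares were 26.3% of explosion and 12.8% of control members, with 0.900% and 0.397% of other barcodes, and without thinning 40.9% of explosion and 64.6% of control members. Rfx3 had a UMI in 24.7% of explosion and 8.54% of control members, with 3.88% and 0.879% of other barcodes, and without thinning 42.8% of explosion and 55.2% of control members. Hydin had thinned shares of 47.4% in explosion and 28.0% in control members, Dnah9 33.7% and 12.7%, and Dynlrb2, a gate gene, 31.1% and 55.0%. Without thinning these shares were 67.8% and 83.9% for Hydin, 52.9% and 63.1% for Dnah9; Dynlrb2 had a UMI in 104 of 208 explosion and 876 of 960 control members. Deup1 had a UMI in 4.74% of explosion (2.19 to 8.80) and 4.27% of control members (3.08 to 5.75), a difference within counting error; without thinning the shares were 6.73% and 31.1%. Genes of early differentiation were rare: Ccno had a UMI in 0 of 190 explosion members, where a floor of 3 counts allows a share of up to 1.58% and the exact interval up to 1.92%, and in 1.46% of control members. Among control members under 10% Scgb1a1, thinned in a separate draw, the share was 0.328%. Mcidas and Foxn4 had a UMI in 0 of 190 explosion members and in 0.104% and 0.417% of control members. Both explosion limits lie above each of the control shares, so a difference in these genes was not detectable at this depth. Without thinning, Ccno had a UMI in 0.481% of explosion and 6.35% of control members.

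Nuclear-encoded respiratory chain genes were lower in explosion members. Of 39 such genes of oxidative phosphorylation, which supplies the energy for beating, none was at least 2-fold higher. At least 2-fold lower were 26, a share of 66.7% against 13.4% of all genes. The median log2 ratio was -1.34 and all 39 lay below the median of all genes. Mitochondrial genes, which are not in this list, went the other way, at 3.26% of the UMIs of explosion members and 0.929% of those of control members. Cox7a2 was 11.7-fold lower (4.57 to 43.0), at 17.0 CPM on 4 UMIs in explosion members and 199 CPM in control members; without Scgb1a1-rich members 1 UMI was left in the explosion library, a ratio of 31.5-fold lower with an interval of 5.63 to 1246. Ndufa13 was 5.50-fold lower (3.27 to 10.1), at 59.5 CPM in explosion and 327 CPM in control members. Atp5f1b, the catalytic subunit of the synthase, went the other way, at 501 CPM in explosion and 326 CPM in control members, with 479 and 466 CPM in those under 10% Scgb1a1. The same 39 genes had a median of -1.32 in other barcodes. Of 72 cytosolic ribosomal protein genes, a list added after the values were seen, none was at least 2-fold higher and 41 at least 2-fold lower, 56.9% against 13.4% of all genes. Among members under 10% Scgb1a1, 61 of 72 genes were at least 2-fold lower, and in other barcodes the median log2 ratio of the list was -0.93, against -1.14 in members.

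Glycolysis genes had a median log2 ratio of -0.81, with none of 8 at least 2-fold higher and 3 at least 2-fold lower, 37.5% against 13.4% of all genes. The Scgb1a1-poor members, under 10%, had 6 of 9 at least 2-fold lower, with a median of -1.09. Ldha had 59.5 CPM in explosion and 187 CPM in control members. In other barcodes the median of these 8 genes was -0.06. Adenylate and creatine kinases, which spread phosphate along the cilium, were listed together with nucleoside diphosphate kinases of the Nme family. Of 8 genes in this mixed list, 1 was at least 2-fold higher and 4 at least 2-fold lower (median -0.66, against -0.90 in other barcodes). These shares were 12.5% and 50%, against 41.3% and 13.4% of all genes. In members under 10% Scgb1a1 the counts were 0 and 4 of 8. Nme3 had 25.5 CPM in explosion and 110.2 CPM in control members. Heat shock genes and chaperones had none of 14 at least 2-fold higher and 3 at least 2-fold lower (median -0.62, against -0.03 in other barcodes). The share lower was 21.4%, against 13.4% of all genes. In members under 10% Scgb1a1, 5 of 14 were at least 2-fold lower. Hspe1, a mitochondrial chaperonin, had 106 CPM in explosion and 362 CPM in control members, and Hspa8 246 and 510.4 CPM.

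Oxidative stress genes were mostly lower in explosion members, with 1 of 14 at least 2-fold higher and 7 at least 2-fold lower. The median log2 ratio was -0.97 in members and -0.78 in other barcodes, so the lower values were not particular to members. These shares were 7.14% and 50%, against 41.3% and 13.4% of all genes. The peroxiredoxin Prdx5 was 4.89-fold lower (3.51 to 7.03), at 149 CPM in explosion and 727 CPM in control members. Mt1, a metallothionein, had 2 UMIs in explosion members, 8.5 CPM against 140.2 CPM in control members. Catalase, Cat, had 132 CPM in explosion and 59.2 CPM in control members, but 107 and 94.4 CPM in members under 10% Scgb1a1. Xenobiotic and aldehyde genes had 5 of 19 at least 2-fold higher and 2 at least 2-fold lower (median 0.25, or -0.48 relative to all genes). These shares were 26.3% and 10.5%, against 41.3% and 13.4% of all genes. In members under 10% Scgb1a1, 2 of 18 were at least 2-fold higher and 3 at least 2-fold lower. Cyp4b1 had 782 CPM in explosion and 250.1 CPM in control members and Cyp2s1 442 and 151 CPM, each nearer 2-fold in members under 10% Scgb1a1, where the ratios were 1.97 and 1.93.

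Of 15 immediate early genes, transcription factors and regulators induced soon after a stimulus, 4 were at least 2-fold higher, 26.7% against 41.3% of all genes, and none at least 2-fold lower; the median log2 ratio was 0.25, or 0.48 below all genes, and -0.16 in members under 10% Scgb1a1, where 1 of 13 was at least 2-fold higher. In other barcodes the median of the list was 0.72. Nr4a1 had 97.7 CPM in explosion and 14 CPM in control members, a ratio of 6.98 (4.61 in members under 10% Scgb1a1), and Zfp36, an RNA-binding repressor of cytokine messages, 336 and 79.0 CPM. Fos had 718 CPM in explosion and 714 CPM in control members. Of 24 interferon response genes found, 3 reached the level limit in members and 2 were at least 2-fold lower; 4 of 6 were at least 2-fold lower in members under 10% Scgb1a1. The 2 were Bst2, at 102 CPM in explosion and 296 CPM in control members, and Ifi27, at 199.7 and 543 CPM; B2m had 803 and 1573 CPM. Genes of epithelial inflammation and injury had 1 of 9 at least 2-fold higher and 1 at least 2-fold lower, and 2 and 1 of 11 in members under 10% Scgb1a1. The first was Cdkn1a, an inhibitor of the cell cycle, at 263 CPM in explosion and 133 CPM in control members, just past 2-fold with the added counts and at a ratio of 1.66 in members under 10% Scgb1a1, and the second Krt18, a simple epithelial keratin, at 136 and 332 CPM.

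Chromatin and splicing genes were the highest program. Of 25 genes, 23 were at least 2-fold higher, 92% against 41.3% of all genes, and none at least 2-fold lower. The median log2 ratio was 1.62, or 0.89 above all genes. Kmt2d, a histone methyltransferase, had 221 CPM in explosion and 32.3 CPM in control members, a ratio of 6.84 (4.99 to 9.22). The splicing factor Prpf38b had 539.7 CPM in explosion and 81.1 CPM in control members. In other barcodes the same list had a median of 2.06. In members under 10% Scgb1a1 it was 1.19, with 15 of 25 at least 2-fold higher.

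Ratios of explosion over control members were ranked among genes with at least 30 UMIs in the higher library. Markers of other cells and mitochondrial, ribosomal, hemoglobin and immunoglobulin genes were left out. The highest log2 ratio of all 3618 genes, 7.17, lay outside these limits. Within them the 12 highest ratios were led by Rn45s, the ribosomal RNA precursor. Slc28a2, Slfn4, Coro6, Sik1, Errfi1, Syne1, Cpm, Ins2, Msantd2, Sned1 and Kmt2d followed. Rn45s had 1895 CPM in explosion and 98.6 CPM in control members, and its log2 ratio of 4.27 lay below the 5.13 of other barcodes. Syne1, which encodes a very large nuclear envelope protein, had 1079 CPM in explosion and 131 CPM in control members, a ratio of 8.22 (7.15 to 9.43), and a log2 ratio of 3.04 against 2.22 in other barcodes. Coro6 had 140.2 CPM in explosion and 15.4 CPM in control members, and its log2 ratio was 3.21 against 1.31 in other barcodes; under 10% Scgb1a1 it had 49.6 and 10.5 CPM. Sik1, a stress-inducible kinase, and Errfi1, a feedback inhibitor of the epidermal growth factor receptor, had 234 and 161 CPM in explosion members, against 26.8 and 19.4 CPM in control members; in those under 10% Scgb1a1, Sik1 had 140.4 and 30.7 CPM in the explosion and control libraries.

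Within the same limits, the 12 lowest ratios belonged to Gp2, Dstnl1, Mt1, Cox7a2, Ftl1, Pigp, Cyba, Lamtor4, Txnl4a, Tma7, Cst6 and Chi3l1. The secretory marker Scgb3a1, left out by them, had the lowest ratio of all 3618 genes. It was 89.7-fold lower (69.4 to 118), at 246 CPM in explosion and 22115 CPM in control members. In members under 10% Scgb1a1 it had 190 and 921 CPM. Gp2, a membrane glycoprotein of secretory epithelia, had 0 UMIs in explosion members and 1164 UMIs, 131 CPM, in control members; against 3 counts over all explosion members it was at least 10.3-fold lower, and the lower bound of the exact interval was 8.37-fold. It also had 0 UMIs in the other explosion barcodes and 8589 in the other control barcodes. In control members Gp2 lay mainly in the Scgb1a1-rich ones, at 176 CPM there and 16.1 CPM in the remaining ones. Cst6, a cysteine protease inhibitor, was the only member of these 12 at least 4-fold above other barcodes in both libraries; it was 6.21-fold lower (3.69 to 11.4), at 59.5 CPM in explosion and 369 CPM in control members. Ftl1, a ferritin light chain with many processed copies, had 59.5 CPM in explosion and 615 CPM in control members. Chi3l1 had 25.5 CPM in explosion and 155 CPM in control members, but 24.8 and 32.7 CPM in members under 10% Scgb1a1. Of the 12, Dstnl1, Mt1, Pigp, Txnl4a and Tma7 had 1 to 3 UMIs in explosion members; Dstnl1, for example, was 25.5-fold lower with a counting interval of 4.56 to 1007.

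Control members were deep enough to describe how they varied among themselves. Genes with at least 0.2 UMIs per cell were ranked, 5203 in number, with markers of other cells such as Scgb3a1 and Lyz2 left out. Scgb3a1 had 30353 CPM in Scgb1a1-rich control members and 921 CPM in the other control members. The highest variance over the Poisson expectation at each cell's depth was found for Scgb1a1 (2346 times). Tmsb4x, Fth1, Wfdc2, Vim, Chia, Ccl20, Ccl5, Tubb4b and Cd74 followed. Of these 10 ranked genes, only Tubb4b was a cilium gene. Vim, a mesenchymal and leukocyte filament, had a UMI in 68.3% of control members, Cd74 of antigen presentation in 37.2%, Chia, an acidic chitinase, in 25.9%, Ccl5, a lymphocyte chemokine, in 12.4% and Ccl20, an epithelial chemokine, in 6.25%. Free RNA or doublets were not separated from expression in these shares. In members under 10% Scgb1a1, 8 of the 10 were again in the first 10, with Chia and Tubb4b replaced by Mt1 and C4a.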

How the data were processed

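The authors deposited, per library, a matrix of whole-number UMI counts over 42172 genes, not normalized, written by cellranger 7.1.0 per the file headers. Per the submitters' processing notes, software included Cell Ranger 6.1.1 and bcl2fastq 2.20; genome builds rn6 and mRatBN7.2 are listed there without roles, and the annotation used was not given in the sources used here. Counts were summed over members and divided by their total (CPM), with Python 3.11.15, numpy 2.4.6 and scipy 1.17.1; ratio intervals are exact conditional Poisson, share intervals exact Clopper-Pearson, both at 95%. No differential test was possible with 1 library per group. Doublets were called with Scrublet (scanpy 1.11.5; 4.71% of explosion and 8.52% of control barcodes) and kept, except in an alternative. The 208 explosion members held 235304 UMIs and the 960 control members 8853420, which sets the precision. Ratios and thinning were tested on simulated data.

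Named genes are the gate genes, the 15 highest over other barcodes, the 12 highest and 12 lowest explosion over control with at least 30 UMIs in the higher library (markers of other cells, mitochondrial, ribosomal, hemoglobin and immunoglobulin genes left out), the 2 extremes at each end of each list and the 10 most variable; genes outside it that are named, such as Hydin, Fos and Dnah5, were chosen after their values were seen. Of 631 listed symbols 616 were found, older names through a RefSeq table of assembly GRCr8. The members and lists were chosen with earlier results of these data known.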

Additional observations from a re-analysis of the deposited data

Results flagged for a closer look

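For 2 of the 123 genes compared in this way, the summed members moved one way between the libraries and the other barcodes the opposite way, by at least 0.5 on the log2 scale in both. Bbip1, a BBSome subunit, had a log2 ratio of explosion over control of -0.99 in members and 1.31 in other barcodes, a difference of -2.29. Cd74, the invariant chain of antigen presentation, had -0.56 in members and 2.89 in other barcodes, a difference of -3.45. Neither difference was tested, since each group is 1 library. Bbip1 rested on 8 UMIs in explosion members.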

How the results depend on the processing

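No paired analysis was possible because each group is 1 library and the groups share only replicate number 1; for the same reason no replicate could be left out. The share of members was 2.90 percentage points lower in the explosion library (a difference of -2.90) and stayed lower under all 10 alternatives run. It was -1.73 with at least 500 UMIs per barcode, -1.40 with a gate at 1% of UMIs, -0.985 with thinned barcodes, -3.85 with a gate at 0.1%, -1.09 without members that pass the secretory gate and -1.73 without Scgb1a1-rich members. Genes at least 2-fold higher in explosion members numbered 1494, against 576 with median-of-ratios scaling, 546 relative to the median gene, 3107 with a mean of at least 20 CPM and 615 with at least 100. Genes at least 2-fold lower numbered 484, against 887 with median-of-ratios scaling, 910 relative to the median gene, 302 with at least 100 CPM and 792 without members that pass the secretory gate. The cilium median was 0.52, against 0.73 for all genes. With median-of-ratios scaling both moved down, to -0.18 and 0.03, so its sign changed but not its place below all genes. These medians, cilium first, were 0.13 and 0.47 with a gate at 1% and 0.23 and 0.45 with thinned barcodes. Without members that pass the secretory gate they were 0.18 and 0.33, and without Scgb1a1-rich members 0.37 and 0.41. They were 0.22 and 0.43 with totals that leave out abundant genes, and 0.24 and 0.46 with CPM averaged over cells. Only with a mean of at least 100 CPM did the cilium median lie above, at 0.62 against 0.55. Genes at least 4-fold higher in members numbered 631, against 947 with a gate at 1% and 382 with at least 100 CPM. Among 123 named genes and 13 settings, 1260 of 1599 log2 ratios stayed within the counting interval of all members, 338 moved and 1 reversed: Scgb1a1, at -1.06 with all members, was 0.34 without members that pass the secretory gate. The causes were not tested. The alternatives without Scgb1a1-rich members, those relative to the median gene and the share without secretory-gated members were added after seeing the data. With 235304 UMIs, explosion members limit the precision.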
